A study of Homo sapiens with 12 samples.

Results

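The genes described here encode the protein folding and protein degradation machinery of the endoplasmic reticulum (ER), 37 genes in all. They were the ER chaperones with their cochaperones, the disulfide isomerases and oxidases, the factors of ER-associated degradation, the translocation channel and the stress transducers XBP1, ATF6 and ERN1. A probe was taken for a member when its platform gene symbol, brought up to date through its Entrez number, was one of these names. This rule used no measured value, but the members were chosen with earlier results of these data known. The rule found 65 probes for 36 of the 37 genes, among 29341 probes with a single symbol and 18646 genes in the whole series. SEC61G, the small subunit of the channel, had no probe with a single symbol in the annotation used.

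The cells were NT2/D1 (NTERA2), an embryonal carcinoma line of human origin in which retinoic acid starts neural differentiation. A hairpin against ZRF1, the protein of the gene DNAJC2, gave the knockdown cells, called shZRF1, which were set against cells with a random hairpin, called shRandom, either after 3 h in 0.01 µM retinoic acid or untreated at 0 h. Each of the 12 Agilent arrays carried shZRF1 RNA in one dye and time-matched shRandom RNA in the second dye, and each time had 3 biological replicates, each with a forward array and a dye-swapped array. Both hairpins were in the same parental line, and the sources used here do not say whether either population was a single clone. The labels number the knockdown line differently from replicate to replicate, and all were treated as 1 line, so the p-values measure the spread between samples of that line taken on different days. All values below are log2 ratios of shZRF1 over shRandom, a difference and not a level, and a replicate value is the mean of its forward and swapped array.

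Proteins that enter the secretory pathway cross the ER membrane through the SEC61 channel, fold with the help of HSP70 and lectin chaperones, and gain disulfide bonds from the protein disulfide isomerases. Proteins that fail to fold are returned to the cytosol and degraded. When unfolded proteins accumulate, the membrane sensors IRE1 (gene ERN1), ATF6 and PERK start the unfolded protein response, in which ATF6 and spliced XBP1 raise the transcription of chaperone and degradation genes while PERK acts through translation and ATF4.

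ATF6 is known to act, together with the factor NF-Y, on the ER stress response element (ERSE), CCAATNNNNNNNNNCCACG, where N is any base. A shorter form, ERSE-II, reads ATTGGNCCACG, and both elements hold the shorter blocks CCAAT and CCACG on one strand or the other. Both were searched on both strands of the RefSeq promoter windows of the assembly GRCh38.p14, which run from 250 bases before to 50 bases after a transcription start. Windows existed for 34 of the 37 genes. An ERSE was present in 8 of these 34 genes (23.5%), against 25 of all 27305 genes with a window (0.092%), and an ERSE-II in 3 of 34 (8.82%), against 19 of 27305 genes (0.07%). The stretches printed here come from the genes with an element whose replicate values are given below, with the ERSE or ERSE-II in capitals and the first of the pair of HSP90B1 shown. PDIA4 and DNAJB9, the pair with the highest ratios among the genes past the test, held neither. The 100 bases before a start of each are shown, with CCAAT and CCACG of either strand in capitals. PDIA4 has another annotated start, not shown, and the 100 bases before it hold neither block.
HSPA5, chr9:125241371-125241429, minus strand: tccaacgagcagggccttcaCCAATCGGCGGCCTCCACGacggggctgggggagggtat
CALR, chr19:12938364-12938422, plus strand: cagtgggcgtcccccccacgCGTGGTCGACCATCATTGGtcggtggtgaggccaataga
HYOU1, chr11:119057360-119057410, minus strand: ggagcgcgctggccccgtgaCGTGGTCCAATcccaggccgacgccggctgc
HYOU1, chr11:119057254-119057304, minus strand: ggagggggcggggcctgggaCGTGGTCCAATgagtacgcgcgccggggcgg
SDF2L1, chr22:21642094-21642144, plus strand: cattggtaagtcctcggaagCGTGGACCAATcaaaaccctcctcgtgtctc
XBP1, chr22:28800583-28800641, minus strand: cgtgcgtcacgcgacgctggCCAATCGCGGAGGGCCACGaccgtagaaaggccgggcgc
HSP90B1, chr12:103930196-103930254, plus strand: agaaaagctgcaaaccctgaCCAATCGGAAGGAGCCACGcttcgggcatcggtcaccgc
HERPUD1, chr16:56932005-56932055, plus strand: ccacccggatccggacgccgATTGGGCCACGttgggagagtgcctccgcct
PDIA4, chr7:149028491-149028590, minus strand: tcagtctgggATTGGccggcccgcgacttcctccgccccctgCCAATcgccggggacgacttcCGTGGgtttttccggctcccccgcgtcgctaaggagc
DNAJB9, chr7:108569774-108569873, plus strand: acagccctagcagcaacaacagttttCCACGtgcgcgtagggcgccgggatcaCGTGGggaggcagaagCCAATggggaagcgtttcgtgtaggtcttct

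The target of the hairpin was checked first. DNAJC2, a ribosome-bound J-domain cochaperone of the cytosol, had replicate ratios of -1.62, -0.44 and -0.82 at 3 h, against -0.58, -1.01 and -0.52 at 0 h. It fell by 0.83 ± 0.15 on the log2 scale over both times (moderated SE, n = 6, limma adjusted p = 0.0111). At 3 h alone it fell by 0.96 (adjusted p = 0.0348), and at 0 h by 0.70, where it did not pass (adjusted p = 0.106). In a second model without the 3 wide arrays described next, it fell by 0.53 over both times (adjusted p = 1.35e-07). Equal interquartile ranges of 0.154 showed that the arrays had been scaled, but the span between percentiles 1 and 99 was over 1.2 times that of the median array on 3 of the 12, named the wide arrays here. They were the forward array of 3 h replicate 1, with a span of 3.05, the swapped array of 3 h replicate 3, with 1.11, and the swapped array of 0 h replicate 2, with 1.70. Values without them are given for some of the results and come from the second model, which took each remaining array singly. Its replicate block had a correlation of 0.044, so the forward and swapped array of a replicate counted almost as separate samples. Its p-values are therefore not comparable with those from the 6 replicate values. Arrays of one dye orientation correlated at 0.397 to 0.685 across genes before the swaps were turned, and the forward and swapped array of a replicate at -0.081 to 0.215. A knockdown difference turns sign with the dyes and a dye difference does not. Embryonal carcinoma markers could not be checked as levels. Of 11 measured, 0 were higher in shZRF1 and 3 were lower over both times, in limma and likewise at an unadjusted p under 0.05. Of all genes, 10.8% were higher and 10.7% lower in limma, and 17.2% and 17.4% at an unadjusted p under 0.05. In limma 6 of 18 fibroblast markers were higher and 2 lower, and of 11 neural markers 2 were higher and 4 lower. The part of such differences in cell state in the ER genes was not tested, and in RNA of whole cultures fewer cells of a type and less RNA per cell cannot be told apart.

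Over both times, 9 of the 36 measured genes were higher in shZRF1 than in shRandom cells and 0 were lower (limma, adjusted p under 0.05 over all genes). They were 5 chaperones or cochaperones of the ER lumen (DNAJB9, HSPA5, HYOU1, DNAJB11 and SDF2L1), the lectin chaperone CALR and 3 disulfide isomerases (PDIA4, PDIA5 and TXNDC5). The share was 25%, where 21.5% of all 18646 genes passed, 10.8% higher and 10.7% lower. At an unadjusted p under 0.05, 13 members were higher and 0 lower, against 17.2% and 17.4% of all genes. The rises were small, from 1.06-fold in SDF2L1 to 1.22-fold in PDIA4, and 5 of the 9 were at least 1.1-fold. The median log2 ratio of the 36 genes was 0.03, against 0.00 for all genes, and 26 of 36 were above 0 (72.2%), against 50.4% of all genes. Their median absolute log2 ratio, 0.0395, was close to the 0.0385 of all genes.

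At 3 h, 6 of the 36 genes were higher in shZRF1 and 0 lower (16.7%, where of all genes 12.6% passed, 6.84% higher and 5.77% lower). These 6, PDIA4, DNAJB9, HSPA5, PDIA5, TXNDC5 and DNAJB11, were also among the 9 of both times. The 3 h calls rest on a spread estimated from both times, and with 3 h fitted alone 0 members and 0 of all genes passed. At an unadjusted p under 0.05, 10 were higher and 0 lower at 3 h, against 16.2% and 14.1% of all genes. At 0 h none of the 36 passed in limma, where 6.82% of all genes did, 2.92% higher and 3.89% lower, and 5 were higher and 1, ERN1, was lower at an unadjusted p under 0.05, against 10.3% and 12.4% of all genes. The effects at the 2 times were not shown to differ. For the difference of 3 h minus 0 h, 0 genes of 18646 passed (0%), the lowest adjusted p among the members was 0.718, and TXNDC5 alone had an unadjusted p under 0.05, against 943 of all genes. The 3 values at 3 h were all above the 3 values at 0 h in 5 of 36 members, DNAJB9, TXNDC5, ERN1, DERL1 and DERL2, where 8.6% of all genes showed this order.

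All 6 replicate values were above 0 in 10 of the 36 genes, the 9 that passed and SSR1, against 14.1% of all genes, and all 6 were below 0 in none, against 13.3%. The number of members past the test over both times was 2 without 0 h replicate 2 or 3, 3 without 0 h replicate 1, 4 without 3 h replicate 2, 8 without 3 h replicate 1 and 9 without 3 h replicate 3. Of all genes, 4007 passed with every replicate, and in the same order of fits 2130 or 2286, 2386, 2924, 4237 and 3511 passed. PDIA4 and PDIA5 passed in all 6 of these fits, DNAJB9 and DNAJB11 in 3, HSPA5, HYOU1 and TXNDC5 in 2, and CALR and SDF2L1 in 1. At 3 h the number was 0 without 0 h replicate 1 or 3, 1 without 0 h replicate 2 or 3 h replicate 2, 2 without 3 h replicate 3 and 4 without 3 h replicate 1, where of all genes 2350 passed with every replicate and 697 to 1490 in these 6 fits. At 0 h it was 3 without 3 h replicate 1, where 2396 of all genes passed against 1271 with every replicate, and 0 in the other 5 fits, where 37 to 860 of all genes did. The second model, which left out the wide arrays and took each remaining array singly, had a term for the dye and the replicate as a random block. The 9 genes all passed in it, together with ERO1B and SSR1, and of all genes 14.6% were higher and 15.3% lower. It counts the arrays of a replicate almost as separate samples, so passing in it is not a call on replicates. In that model 9 members were higher and 0 lower at 3 h, against 9.27% and 9.32% of all genes, and 5 were higher and 0 lower at 0 h, against 8.35% and 9.5%.

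The median of the 36 genes was above 0 in each replicate, at 0.05, 0.02 and 0.04 at 3 h, against 0.02, 0.04 and 0.06 at 0 h. The values of the times overlapped. By dye, the median of the single arrays' medians was 0.02 for the forward and 0.07 for the swapped arrays. The gap was wider for the chaperones and cochaperones, at 0.00 and 0.12, than for the disulfide enzymes, at 0.03 and 0.09. Taken over the genes' means instead, the median of the 36 genes was 0.008 on forward and 0.046 on swapped arrays. Of the 36 genes, 16 had a single probe and 20 had several. In 10 of those 20 all probes had means of one sign, so a mean near 0 often covered probes on both sides of it.

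**Figure D1:**
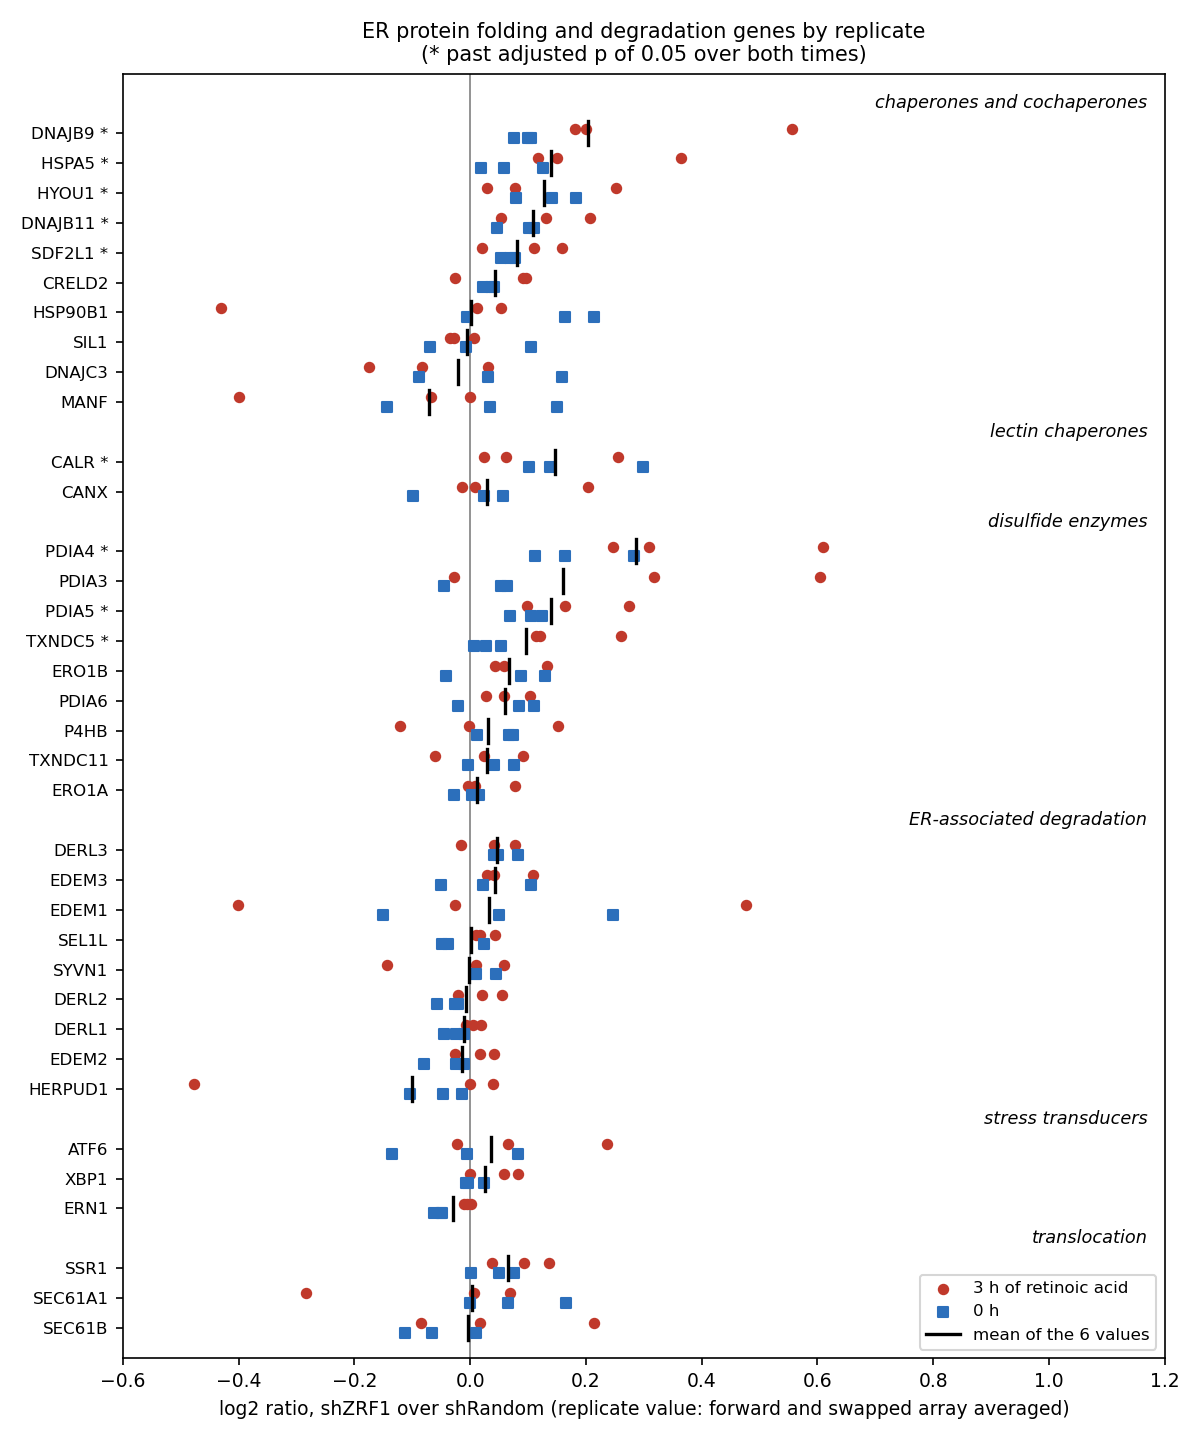
Log2 ratio of shZRF1 over shRandom (horizontal axis) for the 36 measured genes, ordered by role. Circles are the 3 replicates at 3 h of retinoic acid, squares the 3 at 0 h, the bar is the mean of the 6 values and an asterisk marks the 9 genes past an adjusted p of 0.05 over both times. The chaperones and disulfide enzymes with an asterisk lie right of 0 in all 6 replicates, and the degradation, transducer and translocation genes spread around 0.

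Among the chaperones and cochaperones, 5 of 10 rose over both times and 0 fell, with a median log2 ratio of 0.06. HSPA5 (BiP), the HSP70 of the ER lumen and the chaperone that holds the stress sensors inactive, had ratios of 0.36, 0.15 and 0.12 at 3 h, against 0.02, 0.06 and 0.13 at 0 h. All 6 values were above 0 and the times overlapped. HSPA5 rose by 0.14 ± 0.04 over both times, 1.1-fold (adjusted p = 0.0347), and by 0.21 at 3 h (adjusted p = 0.0417), and its 2 probes gave the same mean of 0.14. The forward array of 3 h replicate 1, a wide array, read 0.70 for HSPA5, and without the wide arrays the mean was 0.10 (adjusted p = 0.00323) and the 3 h ratio 0.12 (adjusted p = 0.014). The forward arrays of HSPA5 averaged 0.23 and the swapped arrays 0.05.

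DNAJB9 (ERdj4), a J-domain cochaperone of BiP that is a well-known XBP1 target, had ratios of 0.56, 0.18 and 0.20 at 3 h, against 0.10, 0.08 and 0.10 at 0 h. Every 3 h value was above every 0 h value, but the difference between the times did not pass (adjusted p = 0.718). DNAJB9 rose by 0.20 ± 0.05 over both times, 1.15-fold (adjusted p = 0.0311), and by 0.31 at 3 h (adjusted p = 0.0369). Without the wide arrays the 3 h ratio was 0.19 (adjusted p = 0.000592). The forward arrays averaged 0.41 and the swapped arrays 0.00.

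HYOU1, the HSP110-type exchange factor that recharges BiP, had ratios of 0.03, 0.08 and 0.25 at 3 h, against 0.08, 0.18 and 0.14 at 0 h. The times overlapped and all 6 values were above 0. The mean was a rise of 0.13 ± 0.03, 1.09-fold (adjusted p = 0.0336), but it stood between 6 forward arrays below 0, averaging -0.15, and 6 swapped arrays above 0, averaging 0.40. Without the wide arrays the mean of HYOU1 was 0.10 (adjusted p = 0.00444 in the second model, which took arrays singly).

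DNAJB11 (ERdj3), a soluble cochaperone that hands unfolded clients to BiP, had ratios of 0.05, 0.13 and 0.21 at 3 h, against 0.05, 0.11 and 0.10 at 0 h. It rose by 0.11 ± 0.02 over both times, 1.08-fold (adjusted p = 0.0201), and by 0.13 at 3 h (adjusted p = 0.0489), with forward arrays at -0.02 and swapped arrays at 0.24. SDF2L1, a partner of DNAJB11 in the same chaperone complex, had ratios of 0.11, 0.02 and 0.16 at 3 h, against 0.08, 0.05 and 0.07 at 0 h, and rose by 0.08 ± 0.02 over both times, 1.06-fold (adjusted p = 0.0358), with forward arrays at 0.01 and swapped arrays at 0.15. All 6 values of either gene were above 0. Without the wide arrays the mean of DNAJB11 was 0.10 and that of SDF2L1 was 0.06.

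The other 5 chaperone genes did not pass. CRELD2, a cysteine-rich stress-induced protein of the ER, averaged 0.04. HSP90B1 (GRP94), the HSP90 of the ER, read -0.43, 0.01 and 0.05 at 3 h, against -0.01, 0.21 and 0.16 at 0 h, for a mean of 0.00 ± 0.07 (adjusted p = 0.996). Its arrays split by dye, with a forward mean of -0.39 and a swapped mean of 0.39. Its 3 h ratio was -0.12, or 0.02 without the wide arrays. SIL1, a second exchange factor of BiP, averaged 0.00, and DNAJC3 (p58IPK), a cochaperone that also restrains PERK, averaged -0.02. MANF, a secreted stress-induced protein that binds BiP, averaged -0.07 ± 0.06, with -0.40 in 3 h replicate 1 and values from -0.14 to 0.15 in the other 5 replicates. The 3 h ratio of MANF was -0.16, or -0.002 without the wide arrays.

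The lectin chaperones hold glycoproteins in the ER until they are folded. CALR, the soluble one, had ratios of 0.02, 0.06 and 0.26 at 3 h, against 0.14, 0.30 and 0.10 at 0 h, and rose by 0.15 ± 0.04 over both times, 1.11-fold (adjusted p = 0.0404). The times overlapped, and CALR passed at neither time alone (adjusted p = 0.221 at 3 h and 0.113 at 0 h). The swapped arrays averaged 0.30 and the forward arrays -0.01. CANX, the membrane-bound lectin, averaged 0.03 ± 0.04 (adjusted p = 0.613), and its 3 probes ranged from -0.05 to 0.10.

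All 9 disulfide enzymes had means above 0, with a median of 0.07, and 3 rose. PDIA4 (ERp72), an isomerase with several thioredoxin domains, had ratios of 0.61, 0.25 and 0.31 at 3 h, against 0.11, 0.28 and 0.16 at 0 h. All 6 replicates and 11 of 12 arrays were above 0, and the times overlapped. PDIA4 rose by 0.29 ± 0.05 over both times, 1.22-fold (adjusted p = 0.01), and by 0.39 at 3 h, 1.31-fold (adjusted p = 0.0221). Its mean was 0.19 without the wide arrays. With any one replicate left out, the mean was from 0.23 to 0.32 and the test was passed in each of these fits. At 3 h its ratio without the wide arrays was 0.24 (adjusted p = 0.00344).

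PDIA5 (PDIR), another isomerase of the family, was the one gene of the 9 with all 12 arrays above 0. It had ratios of 0.27, 0.16 and 0.10 at 3 h, against 0.12, 0.10 and 0.07 at 0 h, and rose by 0.14 ± 0.03 over both times, 1.1-fold (adjusted p = 0.0114). At 3 h alone it rose by 0.18 (adjusted p = 0.0266), or by 0.11 without the wide arrays (adjusted p = 0.0337). TXNDC5 (ERp46), a thioredoxin-domain isomerase, had ratios of 0.26, 0.12 and 0.11 at 3 h, against 0.03, 0.01 and 0.05 at 0 h. The values of the times did not overlap. TXNDC5 rose by 0.10 ± 0.02 over both times, 1.07-fold (adjusted p = 0.0303), and by 0.16 at 3 h (adjusted p = 0.0279), with forward arrays at 0.24 and swapped arrays at -0.05. Without the wide arrays its 3 h ratio was 0.09 (adjusted p = 0.0202).

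PDIA3 (ERp57), the isomerase that works with CALR and CANX, averaged more than most genes that passed but varied more. It read 0.60, 0.32 and -0.03 at 3 h, against -0.05, 0.05 and 0.06 at 0 h, for a mean of 0.16 ± 0.07 (adjusted p = 0.179), and its 3 probes gave 0.15 to 0.17. In 3 h replicate 1 the forward array, which is wide, read 1.11 and the swapped array 0.10. In the second model, without the wide arrays, the mean was 0.10 (adjusted p = 0.0701) and the 3 h ratio 0.18 (adjusted p = 0.0433). ERO1B and ERO1A, the oxidases that recharge the isomerases, averaged 0.07 (adjusted p = 0.123) and 0.01. PDIA6 averaged 0.06 (adjusted p = 0.106), P4HB, the archetypal isomerase PDI, 0.03, and TXNDC11, a thioredoxin-domain membrane protein, 0.03.

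**Figure D2:**
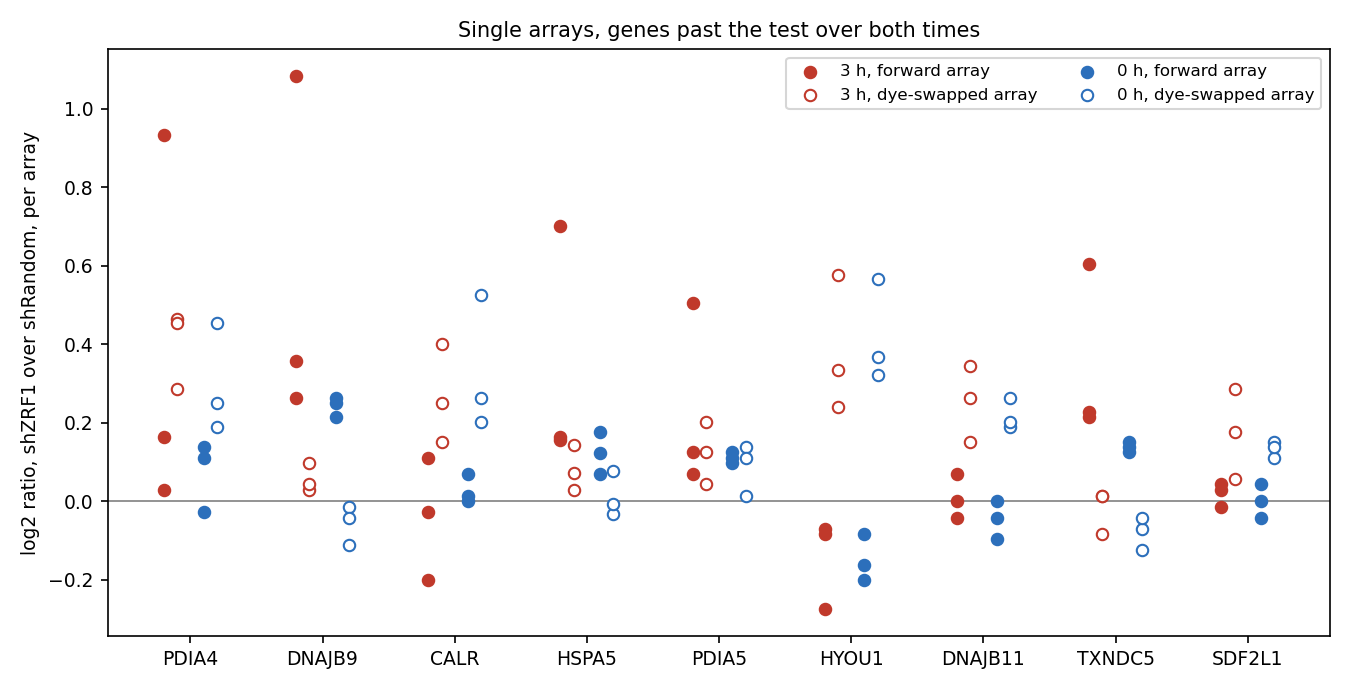
Log2 ratio of shZRF1 over shRandom on each of the 12 arrays (vertical axis) for the 9 genes past the test over both times. Filled circles are forward arrays and open circles dye-swapped arrays, in red at 3 h and in blue at 0 h. The forward and swapped arrays of HYOU1 lie on opposite sides of 0, those of PDIA5 all lie above 0, and the highest forward value of PDIA4, DNAJB9, HSPA5, PDIA5 and TXNDC5 is that of 3 h replicate 1.

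None of the 9 degradation genes rose or fell at either time or over both (limma), and their median over both times was 0.00. DERL3 alone had an unadjusted p under 0.05, over both times and above 0. SEL1L and SYVN1 (HRD1), the scaffold and ubiquitin ligase of the main retrotranslocation complex, each averaged 0.00. DERL1, DERL2 and DERL3, the derlins of the channel, averaged -0.01, -0.01 and 0.05. EDEM2 and EDEM3, mannosidases that mark glycoproteins for degradation, averaged -0.01 and 0.04. EDEM1, of the same family, averaged 0.03 ± 0.11, and the spread came from 1 of its 2 probes, which ran from -0.88 to 0.92 across replicates while the other stayed between 0.01 and 0.09. HERPUD1, a stress-induced membrane scaffold, read -0.48, 0.00 and 0.04 at 3 h, against -0.01, -0.10 and -0.05 at 0 h, for a mean of -0.10 ± 0.07 (adjusted p = 0.35). Without the wide arrays the mean of HERPUD1 was -0.04.

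The transducers themselves did not pass in limma, and over both times 0 of the 3 had an unadjusted p under 0.05. XBP1, whose RNA is spliced by IRE1 into the active factor, read 0.00, 0.06 and 0.08 at 3 h, against -0.01, 0.00 and 0.02 at 0 h, for a mean of 0.03 ± 0.02 (adjusted p = 0.352). ATF6, the sensor cleaved in the Golgi, read 0.24, 0.07 and -0.02 at 3 h, against -0.01, -0.13 and 0.08 at 0 h, for a mean of 0.04 ± 0.04 (adjusted p = 0.59). ERN1, the sensor IRE1, read 0.00, 0.00 and -0.01 at 3 h, against -0.05, -0.06 and -0.05 at 0 h, for a mean of -0.03 ± 0.01 (adjusted p = 0.186). The splicing of XBP1, the cleavage of ATF6 and the activity of IRE1 were not measured. Of the translocation genes, the channel subunits SEC61A1 and SEC61B averaged 0.00, and SSR1, a subunit of the translocon-associated protein complex, averaged 0.07 ± 0.02 with 6 of 6 values above 0 (adjusted p = 0.0574). The 3 h ratio of SEC61A1 was -0.07, or 0.03 without the wide arrays.

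**Figure D3:**
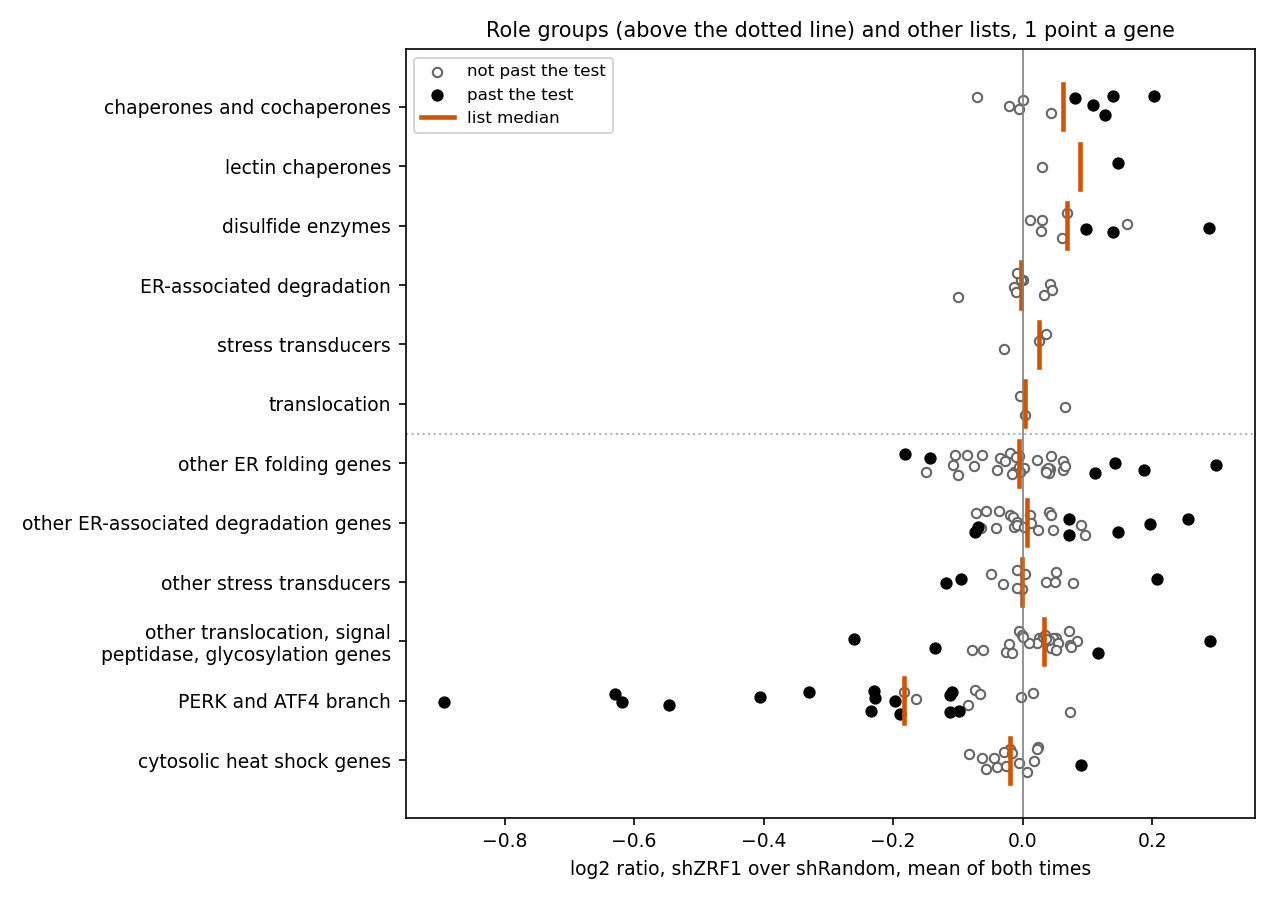
Mean log2 ratio of shZRF1 over shRandom over both times (horizontal axis), 1 point a gene. Filled points passed the limma test, and the orange bar is the list median. The role groups stand above the dotted line, with filled points right of 0 in the first 3 only, and the other lists stand below it, with the PERK and ATF4 branch mostly left of 0 and a median of -0.18.

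Genes of the same pathways outside the 37 were counted in the same fit, in which 10.8% of all genes were higher and 10.7% lower over both times. Among 34 other ER folding genes, 4 were higher and 2 lower in shZRF1 over both times, with a median of -0.01. FKBP14, a prolyl isomerase of collagen folding, rose by 0.30 ± 0.04 (adjusted p = 0.00445) and FKBP9, of the same family, rose by 0.19 ± 0.02 (adjusted p = 0.00328). Among 26 measured other degradation genes, 5 were higher and 2 lower, with a median of 0.01. UBE2J1, an ER-bound ubiquitin-conjugating enzyme, rose by 0.26 (adjusted p = 0.00523) and UBXN8, a membrane adaptor of the ATPase VCP, rose by 0.20 (adjusted p = 0.0418).

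Among 28 other genes of translocation, signal peptide cleavage and glycosylation, 2 were higher and 2 lower, with a median of 0.03. SSR4, a partner of SSR1 in its complex, rose by 0.29 ± 0.06 (adjusted p = 0.0181), or by 0.18 without the wide arrays (adjusted p = 1.35e-05), and SEC61A2, a paralog of SEC61A1, fell by 0.26 ± 0.03 (adjusted p = 0.00411). Among 13 measured other stress transducers, 1 was higher and 2 lower, with a median of 0.00. CREB3L2, an ATF6-like membrane factor of secretory cells, rose by 0.21 (adjusted p = 0.0116), and CREB3L4, a relative, fell by 0.12 (adjusted p = 0.0409). Of 15 measured cytosolic heat shock genes 1 was higher and 0 were lower, also at an unadjusted p under 0.05, with a median of -0.02. That one was BAG3, a cochaperone of HSP70, which rose by 0.09 (adjusted p = 0.02).

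The PERK and ATF4 list holds genes of the remaining arm of the ER stress response, among them genes of amino acid supply. ATF4 itself averaged -0.07 and did not pass. EIF2AK3, the gene of PERK, was counted above with the other transducers, averaged 0.04 and did not pass. The activity of PERK was not measured. Of 23 measured genes of this list, 0 were higher and 15 were lower in shZRF1 over both times, against 10.8% and 10.7% of all genes. Their median log2 ratio was -0.18. At 3 h 9 were lower, against 5.77% of all genes, and at 0 h 8 were, against 3.89%. Over both times at an unadjusted p under 0.05, 1 was higher and 18 lower, against 17.2% and 17.4% of all genes. PCK2, the mitochondrial form of the gluconeogenic enzyme and an ATF4 target, read -1.50, -0.63 and -0.82 at 3 h, against -0.63, -1.05 and -0.73 at 0 h. PCK2 fell by 0.89 ± 0.12 over both times (adjusted p = 0.00406), and DDIT4 (REDD1), a stress-induced inhibitor of mTOR signalling, fell by 0.63 ± 0.08 (adjusted p = 0.00442). Without the wide arrays 18 of 23 were lower and 0 higher, against 15.3% and 14.6% of all genes, and the median of the list was -0.13. This list was drawn up with lower values of some of its genes already known.

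The elements were found both in genes that rose and in genes that did not pass. Of the 11 measured genes with an ERSE or an ERSE-II, 4 rose (HSPA5, CALR, HYOU1 and SDF2L1), and 7 did not pass (HSP90B1, CRELD2, CANX, ERO1B, PDIA6, XBP1 and HERPUD1). Of the 22 measured genes with a window and neither element, 5 rose (PDIA4, DNAJB9, PDIA5, DNAJB11 and TXNDC5). The median log2 ratio was 0.06 with an element and 0.02 without. Among 25 measured genes outside the list that hold an element, 2 were higher and 1 lower, where 10.8% of all genes were higher and 10.7% lower. In HSPA5 the ERSE spanned -66 to -48 from the annotated start, in XBP1 -52 to -34 and in CALR -225 to -207. In HYOU1 one of the pair of ERSE-II matches, at -185 to -175, overlapped a TGACGTGG at -188 to -181, the core that XBP1 and ATF6 are known to bind, and the other was at -79 to -69. TGACGTGG was found on either strand in 3 of 34 genes, HYOU1, TXNDC5 and TXNDC11, against 0.927% of all genes with a window. The short blocks alone were common, with CCAAT in 79.4% of the 34 genes and 39.7% of all genes, and CCACG in 73.5% and 42.1%.

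PDIA4 and DNAJB9, the highest of the genes past the test, both lie on chromosome 7 (GRCh38.p14, PDIA4 at chr7:149003051-149028505 and DNAJB9 at chr7:108569874-108574850). Chromosome 7 had the highest median log2 ratio of the chromosomes compared, 0.05 over 888 genes, and 32.7% of its genes were higher in shZRF1 over both times, against 9.71% of the genes on other chromosomes. At 3 h these shares were 20.3% on chromosome 7 and 6.17% elsewhere. The part of the chromosome's shift in both genes' ratios was not tested. Among the 74 measured neighbours of PDIA4 within 5 Mb on each side, the median was 0.03, 24 were higher and 3 lower, and 0 had a ratio above that of PDIA4. Among the 41 neighbours of DNAJB9, the median was 0.06, 14 were higher and 0 lower, and 2 had a ratio above that of DNAJB9.

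Of the 34 measured members on other chromosomes, 7 were higher over both times, against the 9.71% of genes there, and 4 at 3 h, against 6.17%. HSPA5 stood in a neighbourhood with a median of 0.00, in which 3 of 128 genes had a higher ratio. FKBP14, FKBP9 and CREB3L2, named above from the other lists, also lie on chromosome 7.

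**Figure D4:**
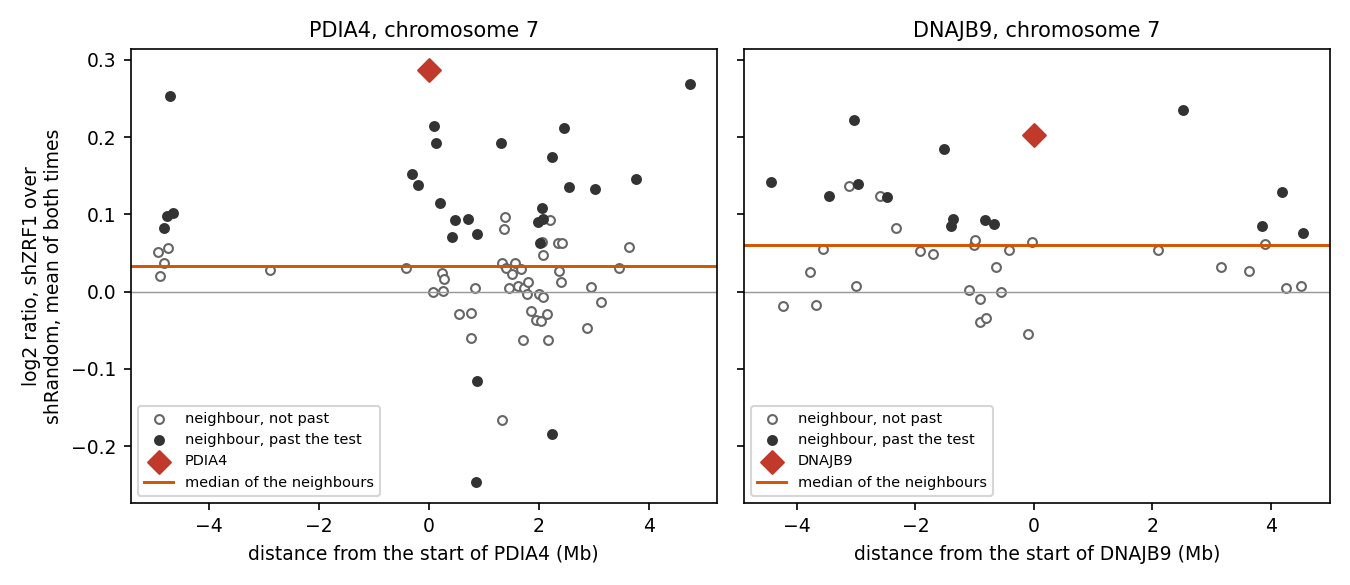
Mean log2 ratio of shZRF1 over shRandom over both times (vertical axis) of PDIA4, left, and DNAJB9, right (diamonds), and of all measured genes within 5 Mb of each, by distance from the gene's start (horizontal axis, Mb). Filled circles passed the test and the line is the neighbours' median, 0.03 and 0.06. PDIA4 lies above all of its 74 neighbours and DNAJB9 below 2 of its 41.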

How the data were processed

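Ratios of shZRF1 over shRandom RNA were measured on 12 Agilent arrays, 6 at 3 h and 6 at 0 h. The deposited values were signed fold changes of Cy5 over Cy3, taken here as a score because the unit was read from the values (0 of them between -1 and 1). The authors used limma, per the submitters' processing notes. Its version and the corrections applied are not given in the sources used here. Signal intensities were not analysed here, so dim probes were kept, and precision is set by the 6 replicate values and their spread.

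Ratios were converted to log2, dye-swapped arrays were turned by the dyes in the labels, probes of a gene were averaged (18646 genes), and the forward and swapped array of a replicate were averaged. Probes with several symbols (33) or none (11626) and 78 control features were left out. Symbols and positions came from the RefSeq table of GRCh38.p14. A linear model of the 6 replicate values was fitted in limma 3.58.1 (R 4.3.3) with moderated variances and a coefficient for each time. No replicate block was used, because same-numbered replicates deviated together at correlations of 0.037, -0.029 and -0.305. Which day a replicate number stands for is not given, so these correlations cannot show that samples of the same day were independent. All replicates share 1 estimate of the spread per gene, from which each SE comes. Values of p were adjusted by Benjamini-Hochberg over all genes, with a threshold of 0.05. The fit was also run on simulated independent values. These held no dye difference and no wide array, so the run could not test the fit against either. Full values are given for members past the threshold and for HSPA5, XBP1, ATF6 and ERN1. From each other list at most the 2 genes past the threshold with the largest ratio are named, and ATF4 and EIF2AK3 besides, after their values were seen. Other members were named after their values were seen. The members and lists were chosen with earlier results of these data known. Alternatives changed the scaling, the dye orientation, the probes, the samples in the fit and the replicate block.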

Additional observations from a re-analysis of the deposited data

Results flagged for a closer look

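Within the 6 arrays of a time, 10 values of the 36 genes stood far from the rest by Dixon's test of the gap to the nearest array over the whole range, 8 at 3 h and 2 at 0 h. Chance flags about 1 group in 20, and over all genes the test picked out 15% at 3 h and 8.2% at 0 h. Of the 10 values, 8 were on wide arrays. The forward array of 3 h replicate 1 held 7 of them, with DNAJB9 at 1.084, HSPA5 at 0.701, ATF6 at 0.581, PDIA5 at 0.506 and CANX at 0.466 above the other arrays, and SYVN1 at -0.357 and HERPUD1 at -0.872 below them. Also at 3 h, TXNDC11 read -0.221 on the forward array of replicate 3. At 0 h, EDEM3 read -0.239 on the swapped array of replicate 2, which is wide, and PDIA5 read 0.014 on the swapped array of replicate 3.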

How the results depend on the processing

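The number of members past the test depended on the processing, and that of all genes, given after each, moved too. At 0 h, where 0 members and 1271 of all genes passed, the count was 4 with arrays rescaled by width (2787), 11 on dye-swapped arrays only (10 higher, 1 lower; 4427), 1 with single arrays, a dye coefficient and a random block (2338), 2 with each time fitted alone (1894), 5 without the wide arrays (3328 with a random block, 3462 without) and 0 to 3 with one replicate left out. At 3 h, where 6 and 2350 passed, it was 8 with arrays rescaled by width (3553), 9 on dye-swapped arrays only (8 higher, 1 lower; 2685), 8 with single arrays (3567), 9 without the wide arrays (3467 with a random block, 3591 without), 0 on forward arrays only (1262), 3 with the most variable probe (1427), 0 with the replicate block (0), 0 with that time fitted alone (0) and 0 to 4 with one replicate left out. Over both times, where 9 and 4007 passed, it was 18 on dye-swapped arrays only (16 higher, 2 lower; 6785), 5 on forward arrays only (3 higher, 2 lower; 4406), 4 with the most variable probe (2833), 3 with the replicate block (1846) and 2 to 9 with one replicate left out. At 0 h 0 members and 0 of all genes passed with the replicate block. A single dye orientation holds the dye difference in full. The forward and swapped array differed in span in the replicates with a wide array, and whether the dye difference cancelled in their means was not tested. In 3 h replicate 1 the forward array spanned 3.05 and the swapped array 0.93. HSP90B1 read -1.13 and 0.27 on them, for a replicate value of -0.43. For 3 h minus 0 h, 0 members passed under every alternative run.

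The median of the members at 3 h, 0.048, was 0.03 with arrays rescaled by width, 0.076 on dye-swapped arrays only, 0.019 on forward arrays only and 0.031 without the wide arrays (with or without a random block). Over both times the median of 0.031 was 0.008 on forward arrays only and 0.02 without 0 h replicate 3, and at 0 h the median of 0.033 was 0.016 and 0.021 in these settings. On forward arrays only, the log2 ratio over both times turned to -0.006 for CALR, -0.146 for HYOU1 (limma adjusted p = 0.0324), -0.019 for DNAJB11, -0.116 for XBP1 and 0.026 for ERN1. On dye-swapped arrays only it turned to -0.049 for TXNDC5 and -0.114 for ATF6. The cause was not tested. For the 9 genes that rose, 77 of 126 alternative values stayed past the test in the same direction, 45 kept the direction and lost the call, and 4 turned. This total includes settings that took arrays singly, in each of which all 9 stayed past. In fits of replicate values, 9 stayed past with arrays rescaled by width and 3 with the replicate block. The number was 2 or 3 without a 0 h replicate and 4 to 8 without a 3 h replicate. Without signal intensities the depth behind a ratio is unknown.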
